A study of Homo sapiens with 4 samples.

Results

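The glycosyltransferase genes that carry ceramide to the ganglioside GD2 and its neighbours were examined by H3K27ac ChIP-seq in SK-N-BE(2)C, a line of neuroblastoma (NB) cells with amplified *MYCN*. They were *UGCG*, *B4GALT5*, *B4GALT6*, *ST3GAL5*, *ST8SIA1*, *B4GALNT1*, *B3GALT4* and *ST8SIA5*, 8 of the 20007 protein-coding genes in GENCODE release 44. A peak was assigned to one of them when it overlapped the gene body or the 10 kb on either side. This gave 15 of the 63699 peaks of control cells (sgCtrl) and 12 of the 50119 peaks of *SNHG1*-depletion cells (sgSNHG1). H3K27ac, the acetylation of lysine 27 on histone H3, marks active promoters and enhancers.

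GD2 is a sphingolipid with a sialylated sugar head group that most NB cells carry at high levels on their surface, where it is the target of therapeutic antibodies. Its head group is built one sugar at a time in the Golgi. *UGCG* adds glucose to ceramide, *B4GALT5* and *B4GALT6* add galactose to make lactosylceramide, and *ST3GAL5* adds the first sialic acid to give GM3. *ST8SIA1* adds a further sialic acid to give GD3, which *B4GALNT1* extends with N-acetylgalactosamine to GD2, and *B4GALNT1* also turns GM3 into GM2. *B3GALT4* extends GM2 and GD2 with galactose, and *ST8SIA5* adds sialic acid to more complex gangliosides. H3K27ac at these genes is not a measure of their RNA or of GD2 itself, neither of which was analysed here.

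Each group comprised 2 samples from independent ChIP experiments. Cells of both groups had been transfected with a plasmid for Cas9 and guide RNAs together with a reporter, selected with puromycin for 3 to 7 days and grown for 1 to 2 weeks after sorting of single cells, as the labels give it. The sgCtrl cells received a non-targeting guide RNA and are labelled wildtype, and the sgSNHG1 cells received guide RNAs against *SNHG1*, a long non-coding RNA gene, and are labelled *SNHG1* knockout. Because the lines grew from single cells, a difference between clones and the loss of *SNHG1* cannot be told apart, and the sources used here do not name the clone assayed by ChIP-seq. The authors combined both samples of a group before peak calling, so each value below is 1 value per group without a replicate error, no difference could be tested, and all comparisons are descriptions of these peak lists. The depth per sample is unknown. Intervals are 95% intervals for counting error only, and they do not cover the variation between cultures or clones.

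For every peak the lists give the fold enrichment at its summit, which sets the fragments stacked there (the pileup) against a local background estimated by the peak caller. The pileup was recovered from the fold enrichment and the −log10 p, and it was a whole number within 0.01 for 99.9% of the peaks in either list and for all member peaks. The median fold enrichment over all peaks was 3.75 in sgCtrl and 3.89 in sgSNHG1. Because the lists differ in size, a peak was also given its percentile by fold enrichment among all peaks of its own list. The percentile still depends on list size, and values from lists of equal size are given below. A peak within 1 kb of the canonical start site was found at 7 of 8 adrenergic NB marker genes in sgCtrl and at 8 of 8 in sgSNHG1, at 1 and 0 of 5 mesenchymal or fibroblast markers (*COL1A1*), at 1 and 1 of 4 blood markers (*SPI1*), at 1 and 0 of 2 liver markers (*APOA1*) and at 1 and 1 of 2 epithelial markers (*EPCAM*).

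The start-site sequences show what kind of promoter the main peaks sit beside. RefSeq promoter windows of GRCh38.p14, which run from 250 bases before to 50 bases after the start of a gene, were matched for 4 of the 8 members, and the start in each was the canonical start site of GENCODE. They are printed 5′ to 3′ on the strand of the gene. Capitals mark the GC box (GGGCGG), the CCAAT box (CCAAT) and the cAMP response element (TGACGTCA), on either strand, so that the GC box may read CCGCCC and the CCAAT box ATTGG, and no marked motifs overlap. The windows are *UGCG* at chr9:111896564-111896863 (plus strand), *B4GALT5* at chr20:49713829-49714128, *ST3GAL5* at chr2:85888941-85889240 and *ST8SIA1* at chr12:22334658-22334957 (all minus strand).
UGCG promoter: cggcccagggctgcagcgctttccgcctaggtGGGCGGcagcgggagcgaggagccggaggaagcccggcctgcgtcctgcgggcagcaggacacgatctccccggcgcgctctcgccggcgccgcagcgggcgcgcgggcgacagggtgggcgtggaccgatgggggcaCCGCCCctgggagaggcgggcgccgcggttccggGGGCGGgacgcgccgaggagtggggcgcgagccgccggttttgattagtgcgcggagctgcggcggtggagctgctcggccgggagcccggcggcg
B4GALT5 promoter: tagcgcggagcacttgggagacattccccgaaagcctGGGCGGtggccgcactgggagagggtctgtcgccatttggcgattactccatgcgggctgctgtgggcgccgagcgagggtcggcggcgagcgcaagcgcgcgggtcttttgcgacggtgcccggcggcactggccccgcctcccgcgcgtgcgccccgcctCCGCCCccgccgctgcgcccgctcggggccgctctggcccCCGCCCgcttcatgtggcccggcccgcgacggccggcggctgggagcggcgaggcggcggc
ST3GAL5 promoter: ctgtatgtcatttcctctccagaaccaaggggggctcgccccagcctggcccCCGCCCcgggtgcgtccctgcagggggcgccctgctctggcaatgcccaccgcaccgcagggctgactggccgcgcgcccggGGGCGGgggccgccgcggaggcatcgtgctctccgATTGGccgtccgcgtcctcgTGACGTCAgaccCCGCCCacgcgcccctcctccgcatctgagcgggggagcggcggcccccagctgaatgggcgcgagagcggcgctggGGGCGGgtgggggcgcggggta
ST8SIA1 promoter: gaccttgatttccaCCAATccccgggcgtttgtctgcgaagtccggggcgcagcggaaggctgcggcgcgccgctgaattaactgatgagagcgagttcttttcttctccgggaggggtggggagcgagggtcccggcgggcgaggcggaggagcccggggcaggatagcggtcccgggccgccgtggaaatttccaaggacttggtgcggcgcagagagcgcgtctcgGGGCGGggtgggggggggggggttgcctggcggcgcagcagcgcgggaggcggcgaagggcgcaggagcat

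All 4 windows were rich in G and C. The GC content was 79.0% in *UGCG*, 77.3% in *B4GALT5*, 76.3% in *ST3GAL5* and 70.3% in *ST8SIA1*, against a median of 58.7% over 34943 RefSeq promoter windows. The ratio of observed to expected CpG dinucleotides was 1.06, 1.05, 0.824 and 1.03 in the same order, against a median of 0.577. The GC box was found 3 times in *UGCG*, 3 times in *B4GALT5*, 4 times in *ST3GAL5* and 1 time in *ST8SIA1*, and 44.9% of all windows held at least 1. *ST3GAL5* and *ST8SIA1* each held 1 CCAAT box, which 34.7% of all windows held. *ST3GAL5* alone of the 4 held the cAMP response element, found in 1.84% of all windows. The E-box CACGTG, the sequence bound by MYC family proteins, occurred in 7.23% of all windows and in 0 of these 4. Such matches describe letters in a short window and not bound sites. The *ST8SIA1* window shared this composition with the others, yet it was the one without a called peak within 1 kb of its start site in either list.

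A peak within 1 kb of the canonical start site, measured to the edge of the peak, was present at 5 of the 8 members in sgCtrl and at the same 5 members in sgSNHG1. Over all protein-coding genes the share was 61.6% in sgCtrl and 61.2% in sgSNHG1. Measured to the summit instead, 5 member peaks in sgCtrl and 4 in sgSNHG1 lay within 1 kb of the start site of their gene. The sgSNHG1 peak at *B4GALNT1* had its summit 1125 bp downstream. The members with a start-site peak were *UGCG*, *B4GALT5*, *ST3GAL5*, *B4GALNT1* and *B3GALT4*, and those without one were *ST8SIA1*, *B4GALT6* and *ST8SIA5*. In both lists *UGCG*, *B4GALT5* and *ST3GAL5*, which lead from ceramide to GM3, had higher start-site peaks than *B4GALNT1* and *B3GALT4*, which act later. The window of *B4GALT6* and that of *ST8SIA5* held no peak at all in either list, as did the windows of 18.3% of all protein-coding genes.

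**Figure D1:**
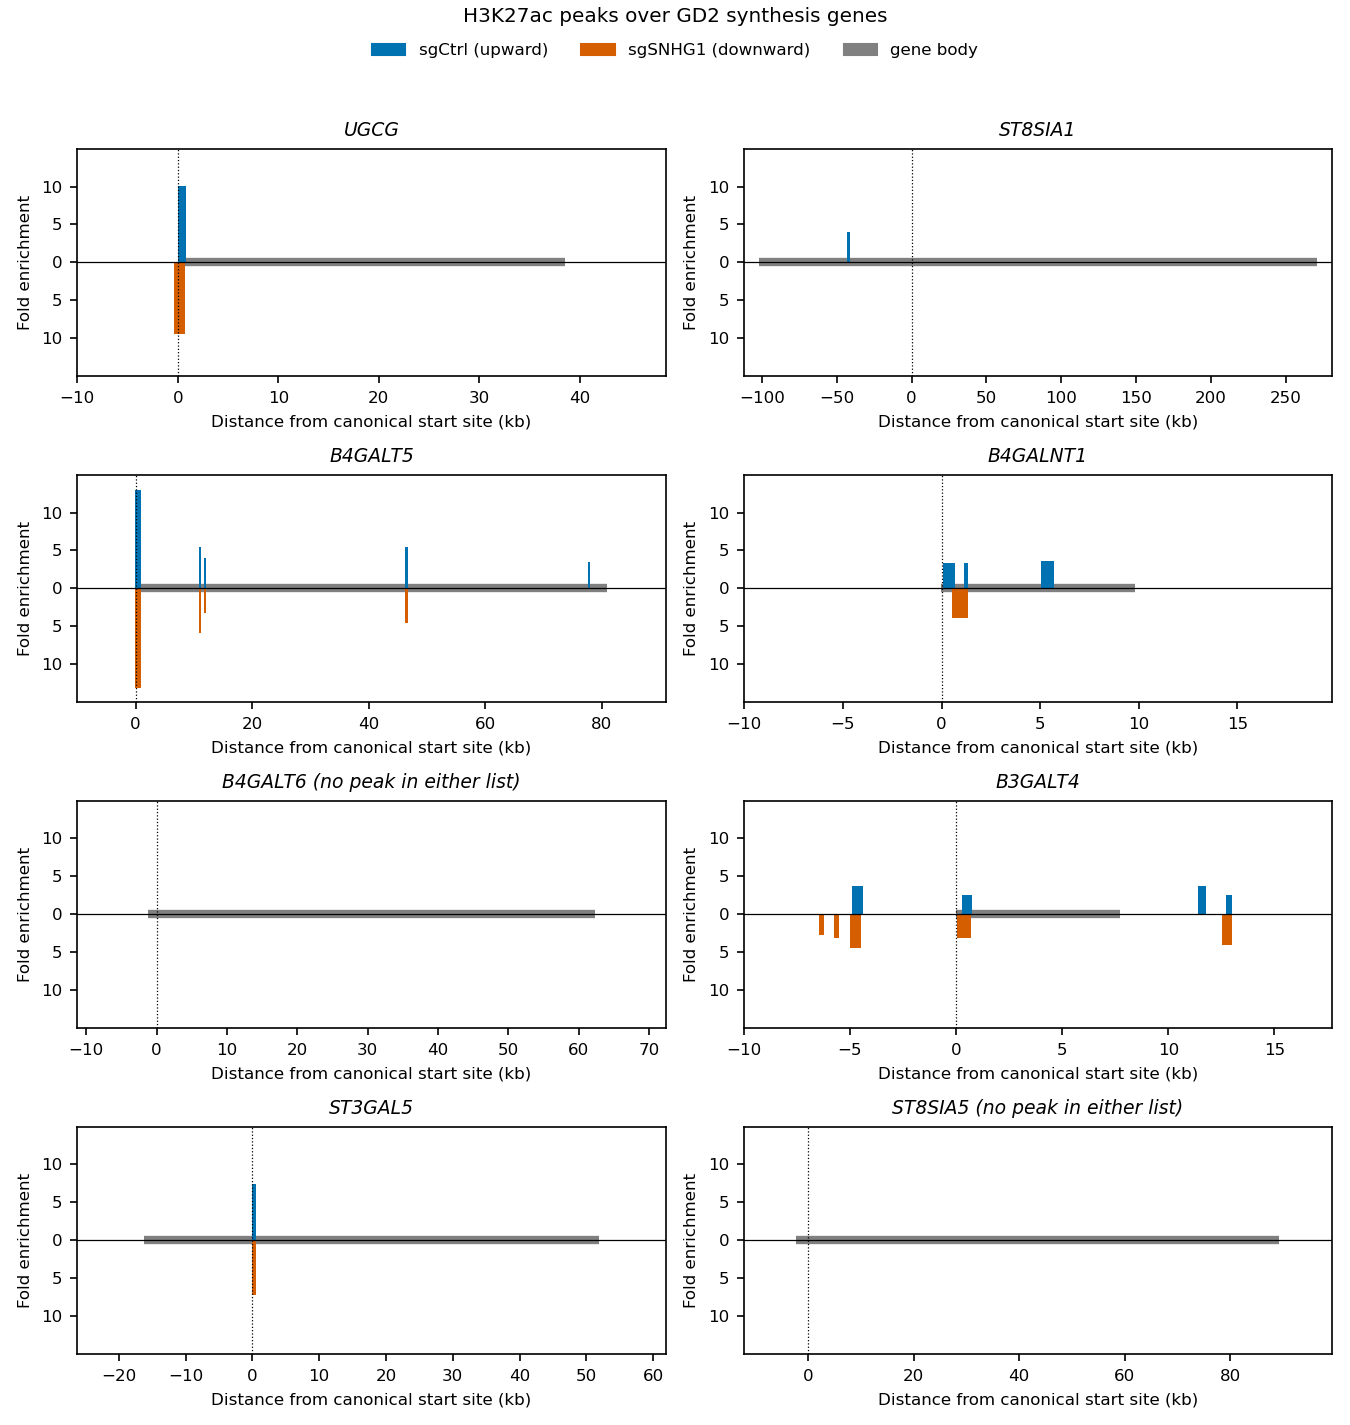
H3K27ac peaks over the 8 GD2 synthesis genes, drawn by distance from the canonical start site in kb (x axis) and by fold enrichment (y axis), with sgCtrl upward, sgSNHG1 downward and the gene body in grey. Very short peaks are widened to stay visible. Peaks at the start sites of *UGCG*, *B4GALT5* and *ST3GAL5* stand at similar heights in both lists, *ST8SIA1* has 1 sgCtrl peak far from the start site, and *B4GALT6* and *ST8SIA5* have 0.

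*UGCG* (chromosome 9, 111896814 to 111935369, plus strand) encodes glucosylceramide synthase, which commits ceramide to the glycolipids. Its window held 1 peak in each list, with the summit in exon 1. The sgCtrl peak reached a fold enrichment of 10.1 (interval 8.13 to 12.5) from a pileup of 87, and the sgSNHG1 peak reached 9.45 (7.57 to 11.7) from a pileup of 85. The heights thus differed by less than their counting intervals, while the percentile went from 95.6 to 93.4. The extent of the peak differed more than its height. In sgCtrl the peak began 17 bp downstream of the start site and ended 781 bp downstream, and in sgSNHG1 it ran from -381 bp to 750 bp. Of the 300 bases printed above for *UGCG*, 33 lay under the sgCtrl peak and 300 under the sgSNHG1 peak. The covered length was 765 bp and 1132 bp, a ratio of 1.48, just under the 1.5-fold set here for calling a change.

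*B4GALT5* (chromosome 20, 49632945 to 49713878, minus strand) encodes the main lactosylceramide synthase and carried the highest peak of all members in both lists. At its start site the fold enrichment was 13.0 (11.3 to 14.9) in sgCtrl and 13.2 (11.5 to 15.1) in sgSNHG1, with pileups of 206 and 217, at percentiles 98.4 and 98.1. Its log2 ratio of 0.02 was the smallest difference among the shared member peaks, and the peak ran from 17 bp upstream to 871 bp downstream in sgCtrl and from 28 bp upstream to 963 bp downstream in sgSNHG1. Both lists also held 3 peaks in intron 1. The first, with summits 11123 bp and 11078 bp downstream of the start site, had a fold enrichment of 5.49 in sgCtrl and 5.83 in sgSNHG1. The next, with summits at 11891 bp and 12019 bp, had 3.98 (2.91 to 5.33) and 3.24 (2.37 to 4.33), and its percentile fell from 55.7 to 31.4. The farthest, with summits at 46546 bp and 46499 bp, had 5.43 (3.74 to 7.64) and 4.51 (2.98 to 6.57), with percentiles of 79.6 and 64.9. The counting intervals of both lower pairs overlapped. A peak in the last exon, exon 9, with a fold enrichment of 3.54 and a pileup of 38, was present in sgCtrl and absent from the sgSNHG1 list.

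Part of the intronic signal at *B4GALT5* lay over repeated sequence. Stretches of 30 bases were taken end to end from each member peak and counted in the reference on both strands. In the start-site peaks of all 5 members every stretch was unique in both lists. In the farthest intron 1 peak of *B4GALT5* the median stretch had 224 copies in sgCtrl and 55.5 in sgSNHG1, and in the middle one 3.5 and 6.5. For the intron 1 peak nearest to the start site the median was 1, although 6 of its 13 stretches had more than 1 copy in both lists. As a background, 16 of 107 sgCtrl peaks spaced evenly along the list (14.95%) had a median above 1. The sources used here do not say whether ChIP-seq reads with several matches were removed, and the part of repeats in these heights was not tested.

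*B4GALT6* (chromosome 18, 31622246 to 31685836, minus strand) encodes the second lactosylceramide synthase, which is prominent in brain. Its window was empty in both lists. The nearest peak lay 257939 bp from the canonical start site in sgCtrl and 257804 bp in sgSNHG1, and the region within 1 Mb of the window held 5 and 4 peaks. The pair of genes for the same reaction thus stood at opposite ends of the range in both lists, with the highest start-site peak at *B4GALT5* and none at *B4GALT6*. An empty window is not a window without acetylation. At the median local background a pileup of 33 in sgCtrl and of 32 in sgSNHG1 was needed to pass the p-value threshold of 1e-06, a fold enrichment of 2.44 and 2.53.

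*ST3GAL5* (chromosome 2, 85837120 to 85905199, minus strand) encodes GM3 synthase, which opens the ganglioside series. It had 1 peak in each list, near the canonical start site at base 85888990, which lies inside the annotated gene body because longer transcripts start upstream. The fold enrichment was 7.36 (5.43 to 9.76) in sgCtrl and 7.20 (5.44 to 9.36) in sgSNHG1, from pileups of 46 and 54. The summits were 2 bp apart, the peaks were 505 bp and 498 bp long, and 71 and 69 bases of the printed window lay under them. No other shared pair of member peaks had summits as close, although the percentile went from 89.9 to 87.3. The start of *ST3GAL5-AS1*, an antisense RNA gene, lies within 1 kb of the same peak, and the assay cannot assign the mark to either gene. Farther out the match ended. With 50 kb on either side in place of 10 kb, the *ST3GAL5* window held 6 peaks in sgCtrl and 3 in sgSNHG1, with 2240 bp and 898 bp covered, a ratio of 0.401.

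**Figure D2:**
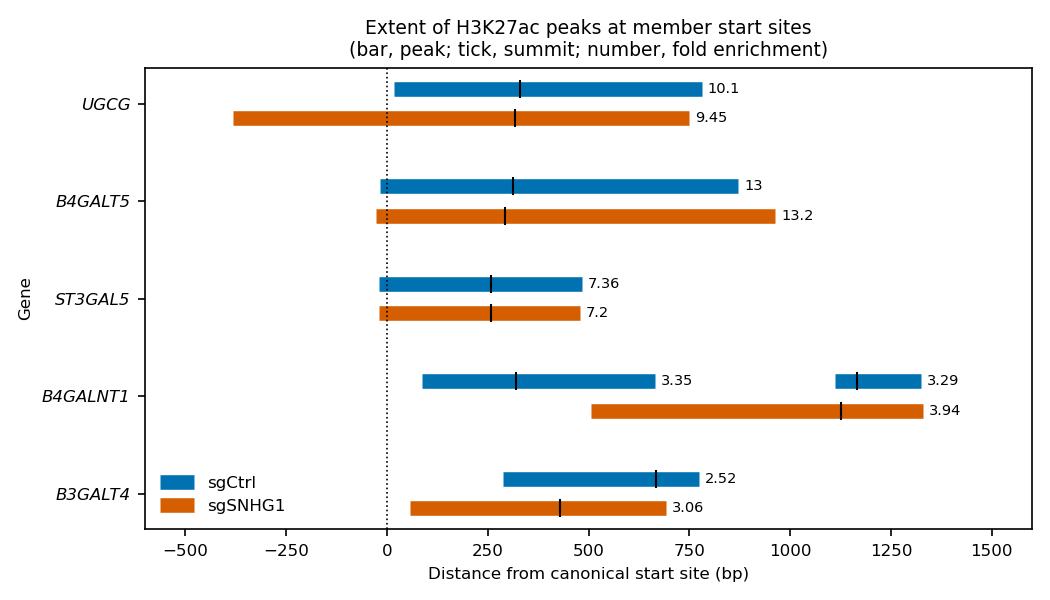
Extent of the peaks at the start sites of the 5 members that had one, by distance in bp from the canonical start site (x axis), with sgCtrl in blue above sgSNHG1 in orange for each gene (y axis), the summit as a tick and the fold enrichment as a number. The *UGCG* peak reaches upstream to -381 bp in sgSNHG1 only, and the single sgSNHG1 peak at *B4GALNT1* spans the gap between both sgCtrl peaks.

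*ST8SIA1* (chromosome 12, 22063773 to 22437041, minus strand) encodes GD3 synthase, the enzyme after which the b-series that includes GD2 branches off. It was the longest of the genes, at 373269 bp, and its canonical start site at base 22334707 had no peak within 1 kb in either list. The sgCtrl list held 1 peak in the window, at -42181 bp from that start site and 40688 bp from the nearest annotated *ST8SIA1* start, inside the gene body but outside the canonical transcript. The peak was 259 bp long, with a fold enrichment of 4.07 (2.64 to 6.03), a pileup of 23 and a −log10 p of 9.27. It was the lowest pileup of all sgCtrl member peaks, and 5 of its 8 stretches of 30 bases had more than 1 copy in the reference, with a median of 3. The sgSNHG1 list held no peak in the window, and its nearest peak lay 208845 bp from the start site.

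The gene next to *ST8SIA1* belongs to the same chemistry. *CMAS*, which activates sialic acid for all sialyltransferases, overlaps the 3′ end of *ST8SIA1* and starts outside the window. Its start-site peak had a fold enrichment of 13.5 in sgCtrl and 15.3 in sgSNHG1, so the sparse mark over *ST8SIA1* did not extend to its neighbour.

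*B4GALNT1* (chromosome 12, 57623409 to 57633239, minus strand) encodes GM2/GD2 synthase, which forms GD2 itself. Its peaks were low in both lists. The sgCtrl list held 3 peaks, with summits 321 bp, 1165 bp and 5609 bp downstream of the start site and fold enrichments of 3.35 (2.35 to 4.64), 3.29 (2.37 to 4.47) and 3.58 (2.72 to 4.64). The sgSNHG1 list held 1 peak of 824 bp, with its summit 1125 bp downstream and a fold enrichment of 3.94 (2.82 to 5.37). That peak ran from 507 bp to 1330 bp downstream and overlapped both of the sgCtrl peaks near the start site. It covered all 213 bp of the second but only 158 bp of the 579 bp of the first, and it left out the summit of the first. The peak in intron 10 was found in the sgCtrl list alone, with a pileup of 56 over a background of 14.9. Among the start-site peaks of all protein-coding genes, that of *B4GALNT1* stood at percentile 9.36 in sgCtrl and 14.0 in sgSNHG1, at summits 804 bp apart. The covered length fell from 1470 bp to 824 bp, a ratio of 0.561, while the percentile of the highest peak rose from 45.1 to 52.0. The highest peak was the intron 10 peak in sgCtrl and the peak near the start site in sgSNHG1, so different peaks were compared. The direction of the height also depended on the measure. By −log10 p the percentile of the highest *B4GALNT1* peak changed by -11.3 points and by pileup by -18.9 points, with highest pileups of 56 in sgCtrl and 38 in sgSNHG1.

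*B3GALT4* (chromosome 6, 33277123 to 33284832, plus strand) encodes the galactosyltransferase that forms GM1-type gangliosides and GD1b from GD2. Its own start-site peak, in its single exon, had the lowest fold enrichment of the 5 start sites in both lists, 2.52 (1.94 to 3.22) in sgCtrl and 3.06 (2.41 to 3.84) in sgSNHG1, from pileups of 62 and 73. These values stood at percentiles 1.82 and 4.00 among start-site peaks. The *B3GALT4* window is crowded, and the other peaks in it lay near the starts of its neighbours *RPS18*, *WDR46*, *PFDN6* and *VPS52*, none of them a glycolipid enzyme. The highest peak of the window, which sets the percentile of *B3GALT4*, belonged to *RPS18*, a ribosomal protein gene, with 3.76 in sgCtrl and 4.38 in sgSNHG1. The largest difference in height among all shared member peaks was also at a neighbour. The peak at *PFDN6*, a prefoldin subunit gene, had a fold enrichment of 2.59 (1.88 to 3.49) in sgCtrl and 4.04 (3.13 to 5.14) in sgSNHG1, and its percentile went from 14.6 to 54.1. The peak at *WDR46* was in the sgCtrl list alone and 2 peaks at *VPS52* in the sgSNHG1 list alone, of which the outer had a median of 1397 copies per 30-base stretch. The start sites of *WDR46* and *VPS52* still had a peak within 1 kb in both lists, since those at *PFDN6* and *RPS18* lay that close.

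*ST8SIA5* (chromosome 18, 46667821 to 46759257, minus strand) encodes a sialyltransferase of the later, more complex gangliosides. Its window was empty, and the nearest peak lay 159865 bp from the start site in sgCtrl and 159868 bp in sgSNHG1. The region within 1 Mb of the window held 15 and 12 peaks. Both members on chromosome 18 were thus without a peak in either group. The other annotated genes that start within a member window and had no peak within 1 kb of their start in either list were *MIR4668*, *RN7SL197P*, *SULT6B2P*, *RNU1-149P*, *C2CD5-AS1*, *SLC26A10P*, *MIR6873*, *ST8SIA5-DT* and 7 genes without a symbol, and *MIR6834* lay beside the *PFDN6* peak.

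Across all members, 11 of the 15 sgCtrl peaks (73.3%, Wilson interval 48.1% to 89.1%) overlapped an sgSNHG1 peak and 4 did not, where 38.5% of all sgCtrl peaks did not. In the sgSNHG1 list 10 of the 12 member peaks (83.3%, 55.2% to 95.3%) had a partner in sgCtrl and 2 had none, where 20.8% of all sgSNHG1 peaks did not. The ratio of peak numbers was 0.800, and over all peaks it was 0.787. The sgCtrl peaks without a partner were those in the last exon of *B4GALT5*, in the gene body of *ST8SIA1* upstream of its canonical start site, in intron 10 of *B4GALNT1* and at *WDR46*, and the sgSNHG1 peaks without a partner were both at *VPS52*. None of the unshared peaks lay at the start site of a member. The peak farthest from a gene body that was still counted lay 4985 bp away in sgCtrl (fold enrichment 2.59) and 6223 bp in sgSNHG1 (2.73), and the nearest peak left out lay 11416 bp (4.34) and 11464 bp (4.19) from *B4GALNT1*.

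**Figure D3:**
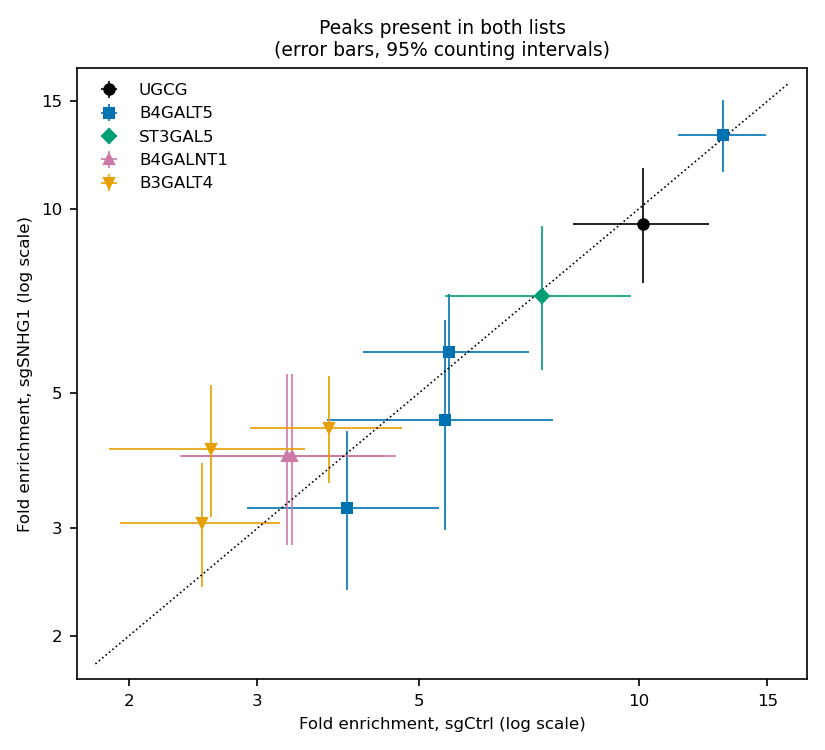
Fold enrichment of the 11 pairs of member peaks that overlap between the lists, sgCtrl on the x axis and sgSNHG1 on the y axis, both on log scales, with 95% counting intervals and a dotted line of equality. Every pair has overlapping intervals, and the start-site peaks of *UGCG*, *ST3GAL5* and *B4GALT5* lie close to the line.

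The overlapping peaks formed 11 pairs, since the single *B4GALNT1* peak of sgSNHG1 pairs with 2 of sgCtrl. The fold enrichment was higher in sgSNHG1 in 7 pairs and lower in 4, and the counting intervals overlapped in all 11. These intervals hold the local background fixed, and their overlap does not show that 2 heights are equal. At *PFDN6*, for example, the pileup was 41 in sgCtrl and 64 in sgSNHG1, over backgrounds of 15.2 and 15.1. The median log2 ratio of sgSNHG1 to sgCtrl fold enrichment was 0.09 over these pairs and -0.04 over all 40292 pairs (quartiles -0.21 and 0.14). The pairs that were lower were those of *UGCG*, *ST3GAL5* and both intron 1 peaks of *B4GALT5* named above with a lower height. The pairs that were higher included all those in the windows of *B4GALNT1* and *B3GALT4*. Among these, the peaks at *RPS18* and *PFDN6* belong to neighbours of *B3GALT4*, and both *B4GALNT1* pairs rest on the same sgSNHG1 peak. The count of higher pairs is therefore not a count of member genes. The median length ratio of sgSNHG1 to sgCtrl was 1.12 over the member pairs and 0.964 over all pairs.

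By covered length, 2 of the 6 members with a peak in a list were lower by 1.5-fold or more in sgSNHG1, where 26.4% of 16339 protein-coding genes with a peak were, and 0 were higher, where 9.56% were. The members that were lower were *ST8SIA1* and *B4GALNT1*, the GD3 synthase and the GD2 synthase. The *ST8SIA1* call rests on 1 sgCtrl peak with a −log10 p of 9.27. The *B4GALNT1* call rests on 3 sgCtrl peaks. Among them the intron 10 peak, absent from the sgSNHG1 list, had a −log10 p of 16.1 and the start-site peak 9.85. With only peaks of a −log10 p of at least 10 in either list, *ST8SIA1* held 0 peaks in both lists, *B4GALNT1* covered 891 bp and 824 bp, and 0 members were lower. Over the 8 windows together, 6726 bp of 893408 bp lay under sgCtrl peaks and 6509 bp under sgSNHG1 peaks, which is a ratio of 0.968.

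The percentile of the highest peak could be compared at the 5 members with a peak in both lists. It changed by -2.27 percentile points at *UGCG*, -0.270 at *B4GALT5*, -2.58 at *ST3GAL5*, 6.90 at *B4GALNT1* and 12.03 at *B3GALT4*. Their median of -0.270 stood beside a median of -0.685 over 15051 genes, with quartiles of -4.16 and 2.07. The changes at *UGCG*, *B4GALT5* and *ST3GAL5* lay between those quartiles. Those at *B4GALNT1*, where the highest peaks of the lists did not overlap, and at *B3GALT4* lay above the upper one. These directions depended on the measure and the list size at 4 of the 5 members. By pileup the change was 1.59 at *UGCG*, 13.8 at *ST3GAL5* and -18.9 at *B4GALNT1*, and with lists of equal size it was 0.170 at *B4GALT5* and 0.156 at *ST3GAL5*. The median over the members became 1.59 by pileup and 0.170 with lists of equal size. At *B3GALT4* the change was 0.858 with 50 kb on either side.

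The surroundings of the members followed the difference in list size. Within 1 Mb of the window but outside it, the sgCtrl and sgSNHG1 lists held 29 and 24 peaks at *UGCG*, 132 and 109 at *B4GALT5*, 92 and 75 at *ST3GAL5*, 74 and 58 at *B4GALNT1* and 102 and 76 at *B3GALT4*. These ratios ran from 0.745 to 0.828. Around *ST8SIA1* both lists held 16 peaks, so the absence of its single sgCtrl peak from the sgSNHG1 list went with no fewer peaks nearby. The *B3GALT4* surroundings showed the lowest ratio, while the window itself held more covered bases in sgSNHG1 (2066 bp) than in sgCtrl (1643 bp).

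**Figure D4:**
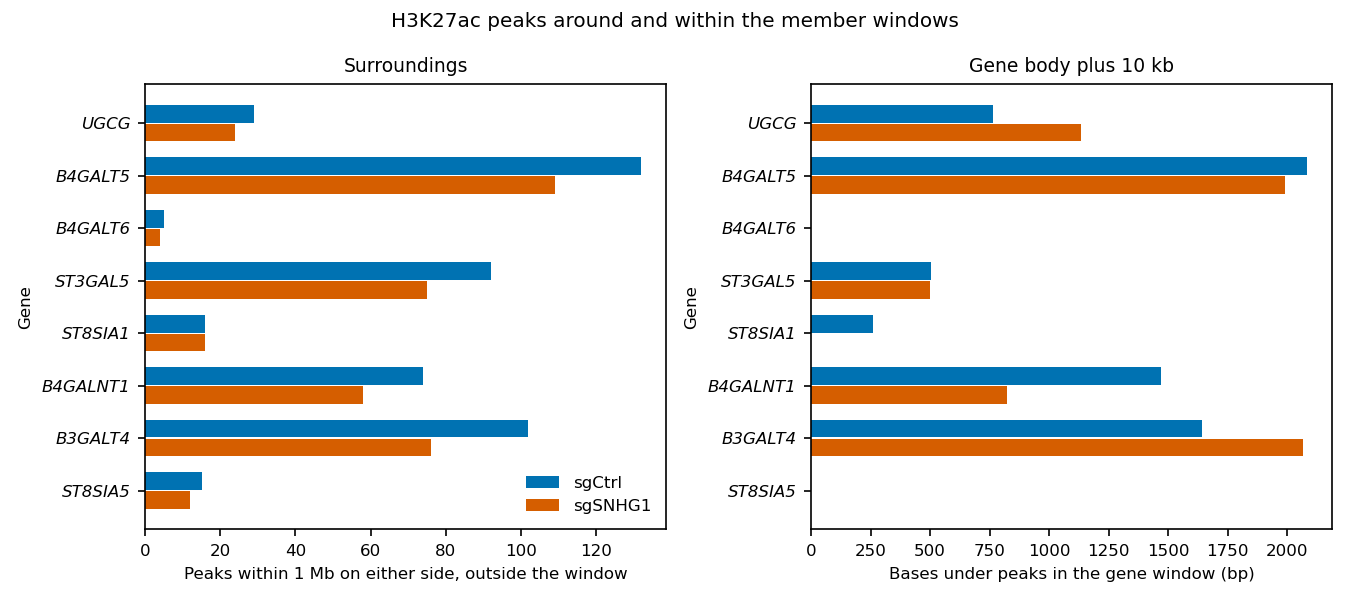
Number of peaks within 1 Mb on either side of each member window, outside it (left), and bases under peaks within the window (right), for sgCtrl (blue) and sgSNHG1 (orange). Peak number around the window is lower in sgSNHG1 at 7 genes and 16 in both lists at *ST8SIA1*, while the covered length within the window is higher in sgSNHG1 at *UGCG* and *B3GALT4*.

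The other genes of ganglioside metabolism were kept in 5 lists with 52 genes in all. Of these, 43 had a start-site peak in sgCtrl and 43 in sgSNHG1, though not all were the same genes. The share of all protein-coding genes was 61.6% in sgCtrl and 61.2% in sgSNHG1. A window peak in both lists was found at 48 of the 52, and at 15051 of all 20007 genes. The percentile of the highest peak was lower in sgSNHG1 at 23 of the 48 genes and higher at 25, with a median change of 0.200 percentile points, and over all genes with a peak in both lists it was lower at 8904 and higher at 6146, with a median of -0.685. By covered length 9 were lower by 1.5-fold or more and 4 were higher, where 26.4% and 9.56% of all genes with a peak were, 36 were within it and 3 had no peak.

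Ceramide supply comprised 13 genes that make ceramide and move it to the Golgi. Of the 12 with a peak in both lists, 7 were lower and 5 higher, with a median change of -0.979. The largest falls in percentile were at the ceramide synthase genes *CERS4* (-18.9) and *CERS1* (-9.17), and the largest rise was at *DEGS2*, a dihydroceramide desaturase and hydroxylase gene (21.5). Other measures of *DEGS2* went the other way. Its start-site peak went from a fold enrichment of 3.25 in sgCtrl to 2.95 in sgSNHG1, and its covered length from 3517 bp to 2045 bp. Sialic acid and nucleotide sugar supply, the donors that the transferases consume, comprised 9 genes, all with a peak in both lists, of which 3 were lower and 6 higher with a median change of 1.05. *UGDH*, the UDP-glucose dehydrogenase, changed by -0.954, and *UGP2*, which makes UDP-glucose, by 10.3. No gene of that list was lower by covered length and 1, *UGP2*, was higher.

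Among the 6 genes of later ganglioside steps, 3 were lower and 3 higher, with a median change of -0.365. The largest falls were at *ST6GALNAC3* (-11.4) and *ST3GAL1* (-7.29), both sialyltransferases, and the largest rise was a tie of 7.96 between *ST6GALNAC4* and *ST6GALNAC6*, whose windows overlap and share their highest peak. By covered length both tied genes were lower in sgSNHG1, from 1436 bp to 828 bp at *ST6GALNAC4* and from 5780 bp to 2232 bp at *ST6GALNAC6*. Of the 9 genes of competing glycolipid branches, 8 had a peak in both lists, 4 were lower and 4 higher, and the median change was -0.775. *A4GALT*, which draws lactosylceramide into the globosides, changed by -15.1 and *B3GALNT1*, which extends that branch, by -2.27. *B4GALT2*, a galactosyltransferase gene, changed by 2.29. Breakdown and transfer held 15 genes, 13 of them with a peak in both lists, with 6 lower, 7 higher and a median change of 0.466. The extremes of all lists were here, at the sialidase genes *NEU1* (-28.5) and *NEU4* (29.6). At *NEU1* the start-site peak went the other way, from a fold enrichment of 3.08 in sgCtrl to 4.16 in sgSNHG1.

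**Figure D5:**
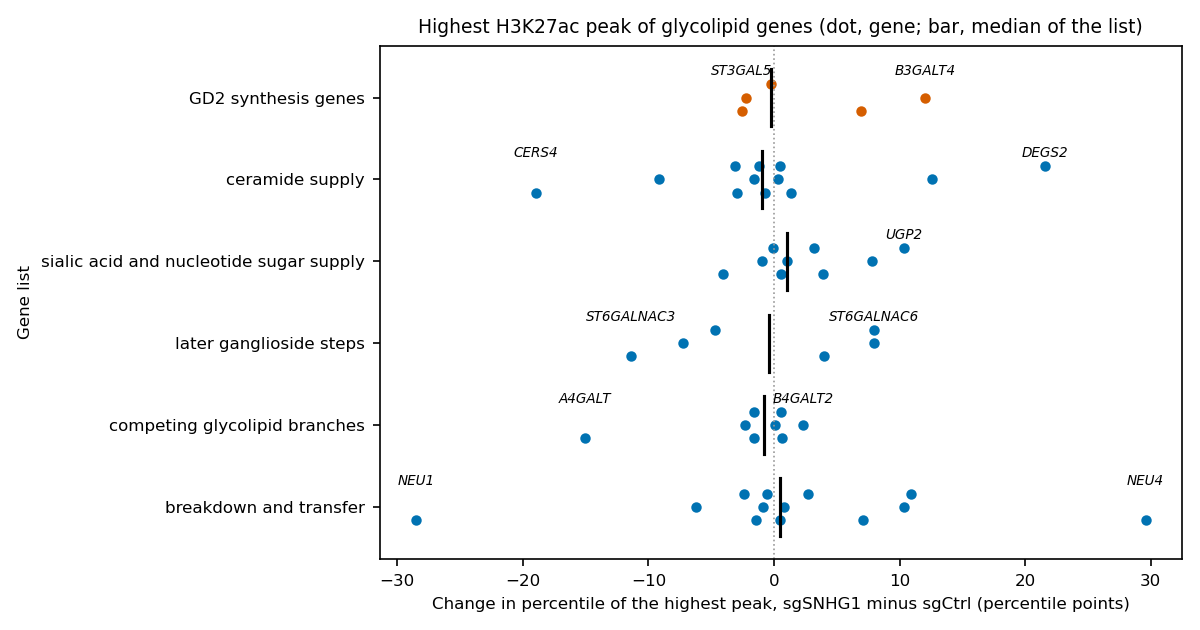
Change in the percentile of the highest peak, sgSNHG1 minus sgCtrl, in percentile points (x axis) for the GD2 synthesis genes and 5 lists of related genes (y axis), with 1 dot per gene with a peak in both lists and a bar at the median of each list. The medians of all lists lie between -0.979 and 1.05, and *NEU1* (-28.5) and *NEU4* (29.6) are the outermost genes.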

How the data were processed

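H3K27ac ChIP-seq of 2 sgCtrl and 2 sgSNHG1 samples was used. Per the paper's methods, the authors trimmed the reads (with cutadapt, per the labels), aligned them to GRCh38 using BWA, pooled the alignments of each group's replicates and ran MACS2 at a p-value of 1e-06, keeping duplicates. An input library is not given in the sources used here. The deposited lists hold for each peak a fold enrichment (the authors' ratio of summit pileup over local background), the −log10 of its p-value, which the authors' caller derived from the pooled reads and which grows with depth, and the offset of the summit. Fragments over a summit were recovered assuming a Poisson p-value and a pseudocount of 1 in the fold enrichment.

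Peaks overlapping (by 1 bp or more) the GENCODE release 44 gene body plus 10 kb were assigned to a gene. Ensembl canonical transcripts gave start sites, exons and introns. A gene was called lower or higher at a 1.5-fold change in bases under peaks. The named genes were all members, the genes that start within their windows, and in each of the 5 pathway lists the 2 largest falls and the largest rise in percentile, except for 2 genes that are not reported here. Members and lists were chosen with earlier results of these data known. The count of copies of 30-base stretches was added after seeing the data. The tools were matplotlib 3.10.9, scipy 1.17.1, numpy 2.4.6 and pandas 2.3.3 under Python 3.11.15, and the computations were tested on simulated data. Because each group has 1 pooled list, no test was run and no p-value is given. Other thresholds, list sizes, windows, overlaps and measures were tried.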

Additional observations from a re-analysis of the deposited data

How the results depend on the processing

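No paired analysis was possible because the lists hold no values per replicate, and leaving out each replicate was not run for the same reason. Of 68 values recomputed under 10 other settings, 12 changed direction. The 68 include shares of shared peaks and counts of start-site peaks, which have no direction to change. A ratio of peak numbers that became 1 was not counted as a change. With only peaks of a −log10 p of at least 10, and with the sgCtrl list cut to the size of the sgSNHG1 list, 3 sgCtrl member peaks (*ST8SIA1*, the start-site peak of *B4GALNT1* and *PFDN6*) and 0 sgSNHG1 member peaks dropped out, the ratio of peak numbers became 1 and that of covered length 1.16. Under both settings 0 members were lower by covered length and *B3GALT4* was higher, at a ratio of 1.53, where 28.1% of all genes with a peak were lower and 9.78% higher with the stricter threshold, and 17.15% and 15.13% with lists of equal size. The sgCtrl start-site peaks numbered 4 there. The *B3GALT4* window takes in peaks at its neighbours. Over its gene body alone, with all peaks kept, the ratio was 1.31, which is within the 1.5-fold limit. With 50 kb on either side, *ST3GAL5* alone of the members was called lower, where 25.6% of 17925 genes with a peak were. The share of sgSNHG1 member peaks that were shared became 100% over the gene bodies alone and with peaks within 1 kb merged. Where an overlap of at least 50% of both peaks was required, the shared share was 60% in sgCtrl and 75% in sgSNHG1.

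The median percentile change became -0.444 with the stricter threshold, 0.170 with lists of equal size, 0.129 with 50 kb and 1.59 by pileup, and over all genes it was -1.22, 0.994, -0.618 and 0.03 under the same settings. Direction reversed at *UGCG* by pileup (1.59), at *B4GALT5* with lists of equal size (0.170), at *ST3GAL5* with lists of equal size (0.156), by −log10 p (0.816) and by pileup (13.8), and at *B4GALNT1* by −log10 p (-11.3) and by pileup (-18.9). *B3GALT4* stayed higher in sgSNHG1 under 6 settings, from 0.858 with 50 kb to 20.1 with lists of equal size, and where *B4GALNT1* stayed higher its change ran from 0.938 with 50 kb to 14.25 with lists of equal size. The causes of these changes were not tested. Without the 3 peaks of repeated sequence in each list, a setting chosen after seeing the data, the ratio of peak numbers was 0.750 and that of covered length 0.958. Depth limits the low peaks most, since a peak of the lowest sgCtrl member pileup, 23, has an interval from 2.64 to 6.03 in fold enrichment.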
